A study of Mus musculus with 9 samples.

Results

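Ribosomal protein processed pseudogenes are copies of ribosomal protein genes that carry a number and the ending -ps in their names, such as Rpl30-ps9. They were chosen by name, as every row of the deposited count table that begins with Rpl or Rps and contains -ps, which gave 271 of 46958 rows, 168 of large-subunit and 103 of small-subunit names. The name used no measured value, but the families described in most detail were selected on their counts in these same libraries, and the question put to them, which copies differ between genotypes and whether a gene and its copies add up to a level sum, was posed with earlier results known. The calls between genotypes are therefore descriptions of these libraries.

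The counts came from RNA sequencing of plasma cells, the antibody-secreting cells of the B lineage, taken from mouse spleen with beads against the plasma cell surface protein CD138. Each of 9 libraries came from 1 spleen of a 3-month-old mouse that had not been immunized, and the labels give the purity as over 80%. The 3 genotypes, with 3 mice each, were wild type (WT), DH-LMP2A, and kFRA, which the labels tie to light chain deposition disease. All 3 genotypes are labelled with the same mixed background of C57/BL6, 129/SV and BALB/c, and the alleles, their promoters and the share of each strain in each mouse are not given in the sources used here.

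A processed pseudogene arises when a messenger RNA is copied back into DNA and inserted elsewhere in the genome, so that it lacks introns and usually a promoter of its own. Ribosomal protein genes are among the genes with the most such copies in mammals, because their short messages are abundant in the germ line. A read from the parent message can match a copy as well as the parent where their bases are the same, and inbred mouse strains differ in single bases and in the copies they carry.

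The 271 copies are short and mostly single exons. Their exons spanned 171 to 1214 bases (median 453), 265 had 1 exon, they lay on 20 chromosomes, and 35 lay on the X chromosome. GENCODE M21, the mouse annotation on GRCm38, named 270 of them and called 258 processed pseudogenes, 6 transcribed processed pseudogenes and 6 protein coding (Rpl10-ps3, Rpl36-ps4, Rpl36a-ps1, Rpl9-ps1, Rpl9-ps6 and Rps12-ps3). Their names point to 60 parents, of which 59 have a row in the table, with up to 22 copies of 1 parent (Rpl31 and Rps12). Inside the span of a protein-coding gene lay 67 copies, 18 of them on the same strand, and the exons of 8 copies overlapped an exon of another gene, among them Rpl19-ps1, Rpl19-ps11, Rps23-ps1 and Rps23-ps2, whose counts are uncertain for that reason.

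Many copies had few counts or none, and the copies with more counts were by median closer in sequence to their parents. No read was counted for 80 copies in any of the 9 libraries, and 49 more had 1 to 9 counts in all. The filter on low counts left 99 copies for testing, so that 172 were not tested, 92 of them with some counts. A mean of at least 1 CPM (counts scaled to the library's size with TMM factors) was reached by 81 copies and of at least 10 CPM by 28. The median identity to the parent's coding sequence was 90.7% among the 77 aligned copies with no counts, 94.9% among those with 1 to 9 counts, 98.7% among those with 10 or more and 99.4% among the 42 with 1000 or more. The share of a copy's 75-base windows, the length of 1 read, that occur in no other annotated gene went the other way, from a median of 100% in the silent copies to 17.9% in those with 1000 or more counts. Of the tested copies, 97 of 99 were closest to the coding gene in their name. Among the exceptions was Rpl36a-ps3, closest to Rpl36al.

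**Figure D1:**
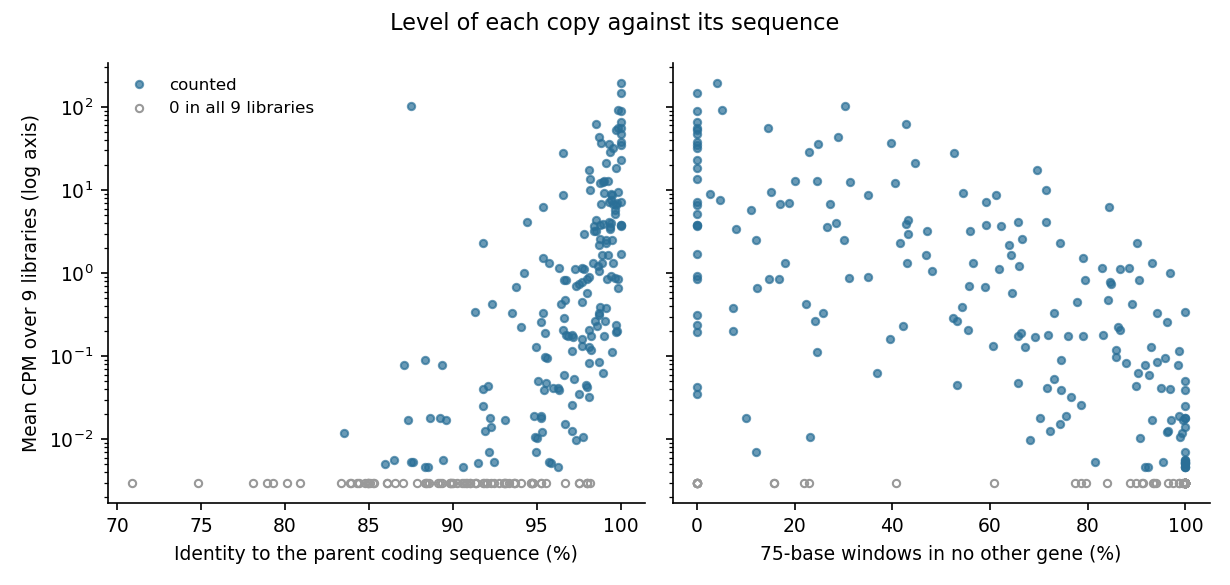
Mean CPM over 9 libraries (log axis) of each copy against its percent identity to the parent coding sequence (left) and against the percent of its 75-base windows that occur in no other annotated gene (right); open circles at the bottom are copies at 0 in all 9 libraries. The copies with the highest levels lie at the right of the left panel, and the 1 exception, at 87.5% identity, is Rpl36a-ps3, whose closest coding gene is Rpl36al.

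All copies together took a small share of each library. Their counts made up 0.201 to 0.217% of the library in DH-LMP2A, 0.159 to 0.213% in kFRA and 0.103 to 0.109% in WT. Set against copies and parents together, the copies held 6.59 to 6.90% in DH-LMP2A, 6.43 to 7.06% in kFRA and 5.94 to 6.13% in WT, so both shares were lowest in the WT libraries. Per kilobase of exon, the median tested copy had 4.55% of its parent's level, and 3 copies stood above the parent in their name (Rpl15-ps2, Rpl35a-ps6 and Rpl36a-ps3). The lengths are those of all annotated exons, 613, 333 and 321 bases for these copies and 2397, 3526 and 1655 bases for Rpl15, Rpl35a and Rpl36a. In CPM, with no length, the copies' means of 43.96, 52.7 and 102 were below the parents' 163, 192 and 149, so the order depends on the length used.

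The 10 copies with the highest levels were Rpl10-ps3, Rps6-ps4, Rpl36a-ps3, Rpl3-ps1, Rps16-ps2, Rps23-ps1, Rps6-ps3, Rpl10a-ps1, Rpl19-ps11 and Rpl35a-ps6, with means over 9 libraries of 194.3 CPM down to 52.7 CPM. Rpl10-ps3 (chr9:50344240-50344981, minus strand) was 100% identical to the coding sequence of Rpl10, a large-subunit protein at the site where the subunits join, and 4.03% of its windows were its own. Rps6-ps4 (chr2:75191073-75191822, minus strand), Rps16-ps2, Rps23-ps1 and Rpl10a-ps1 were also 100% identical to their parents, and no 75-base window of theirs was unique. For such copies the table cannot show from which locus a read came. Rps6-ps4, whose parent encodes the small-subunit protein that growth-signalling kinases phosphorylate, had 167, 158 and 188 CPM in DH-LMP2A, 153, 119 and 217 CPM in kFRA and 105, 111 and 119 CPM in WT. The WT libraries of Rps6-ps4 were the lowest, without a call (log2 fold change DH-LMP2A against WT 0.61, SE 0.20, edgeR adjusted p = 0.0839).

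Between genotypes few copies passed the threshold (edgeR quasi-likelihood test, Benjamini-Hochberg adjusted p under 0.05 over all 14199 tested genes). In kFRA against DH-LMP2A, 2 of 99 tested copies (2.02%) were lower and 0 were higher in kFRA, beside 5.02% of all tested genes called, 3.3% lower and 1.73% higher. In kFRA against WT, 7 (7.07%) were higher and 0 lower, beside 17.8% of all genes, 6.68% higher and 11.1% lower. In DH-LMP2A against WT, 11 (11.1%) were higher and 0 lower, beside 12.4% of all genes, 5.07% higher and 7.3% lower. The share of copies called in either direction was below that of all genes in each of the 3 comparisons, which share libraries, and higher calls in DH-LMP2A against WT were the one class above the share of all genes by more than 1 percentage point. In all, 15 copies were called at least once.

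The copies' median lay near that of the parent genes in both contrasts with WT and on the other side of 0 in kFRA against DH-LMP2A, and the difference was not tested. The median log2 fold change of the tested copies was 0.12 in kFRA against DH-LMP2A, 0.43 in kFRA against WT and 0.36 in DH-LMP2A against WT, and that of all tested genes was between -0.04 and 0.00. The 59 parents had medians of -0.09, 0.39 and 0.45, and the 82 cytosolic ribosomal protein genes had -0.04, 0.40 and 0.46, with 1, 3 and 7 genes called higher and 0, 0 and 1 lower. A copy and its parent had fold changes within 0.5 log2 of each other for 72, 83 and 74 of 99 copies in the 3 comparisons, and they were more than 1 log2 apart for 12, 5 and 10. Scaling by library size alone moved the median of all genes to -0.14, 0.17 and 0.33 and the copies called to 3, 29 and 38, with the copies' median at -0.06 in kFRA against DH-LMP2A. That median was -0.22 without kFRA replicate 3 and 0.39 without kFRA replicate 2. It was -0.01 over the 44 copies with a mean of at least 5 CPM. Its sign therefore depended on kFRA replicate 3, on the scaling and on the filter. In kFRA against WT the copies' median was 0.15 and 0.71 without replicate 3 and replicate 2. Leaving out kFRA replicate 2 raised the copies called to 14 in kFRA against DH-LMP2A (11 higher and 3 lower) and 42 in kFRA against WT. Without kFRA replicate 3 the kFRA against DH-LMP2A count was 4. In kFRA against WT it was 2 or 3 without any other kFRA or WT library, and in DH-LMP2A against WT it was 6 without DH-LMP2A replicate 1, WT replicate 1 or WT replicate 2.

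**Figure D2:**
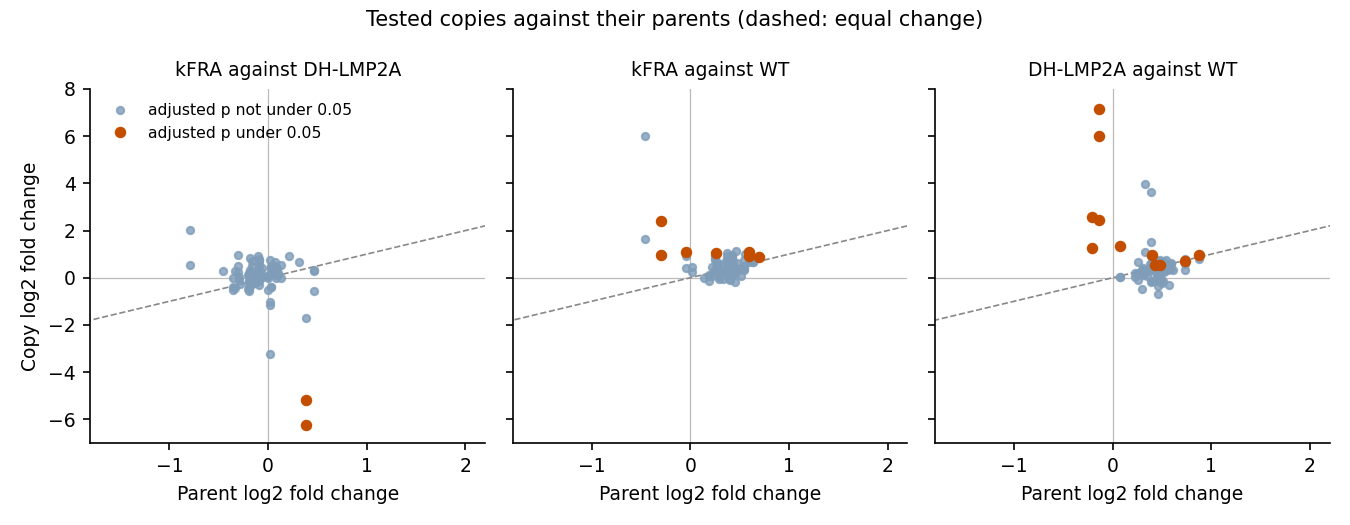
Log2 fold change of each of the 99 tested copies (y axis) against that of its parent gene (x axis) in the 3 comparisons; orange points passed an adjusted p of 0.05 and the dashed line marks equal change. Most points lie within 0.5 of the line, and the copies farthest from it in kFRA against DH-LMP2A are Rpl30-ps9 at -6.24 and Rpl30-ps8 at -5.17.

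Other cells of the spleen moved with genotype in the same libraries. Of 8 erythroid genes 5 were called higher in DH-LMP2A and 5 in kFRA than in WT, and their summed level was 2566 to 13641 CPM in DH-LMP2A, 1167 to 2807 CPM in kFRA and 39.3 to 341 CPM in WT. Of 8 myeloid genes 1 was lower in DH-LMP2A and 4 were lower in kFRA than in WT, with sums of 524 to 1603 CPM, 871 to 1528 CPM and 1986 to 3368 CPM. Of 8 B cell genes 3 were higher and 1 lower in DH-LMP2A than in WT and 4 were lower in kFRA than in WT, and their sums were 1557 to 2156 CPM in DH-LMP2A, 948 to 1501 CPM in kFRA and 1032 to 1259 CPM in WT. Of 8 T cell genes 0 were called, with sums of 34.9 to 101 CPM throughout. In kFRA against DH-LMP2A 2 B cell and 2 myeloid genes were lower and none of the other lists' genes was called. The 8 plasma cell genes, of which 3 were higher and 1 lower in DH-LMP2A and 2 higher and 1 lower in kFRA than in WT, summed to 34147 to 47160 CPM in DH-LMP2A, 20401 to 32064 CPM in kFRA and 18890 to 24141 CPM in WT. No gene of the 5 lists was at 0 in all libraries. The part of these cells in the values of the copies was not tested, and in bulk RNA fewer cells of a type and less RNA per cell cannot be told apart.

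A copy was said to switch where the libraries of a pair of genotypes did not overlap, the fold change was at least 4-fold and the higher genotype averaged at least 1 CPM. Of all tested genes, 2.18% met this in kFRA against DH-LMP2A, 6.04% in kFRA against WT and 4.95% in DH-LMP2A against WT. Of the 99 tested copies, 2 did in kFRA against DH-LMP2A (Rpl30-ps9 and Rpl30-ps8), 1 in kFRA against WT (Rpl3-ps2) and 5 in DH-LMP2A against WT (Rpl3-ps2, Rpl30-ps9, Rpl30-ps8, Rpl30-ps1 and Rpl21-ps15). Just outside stood Rpl30-ps1 in kFRA against DH-LMP2A, with a log2 fold change of -1.69.

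**Figure D3:**
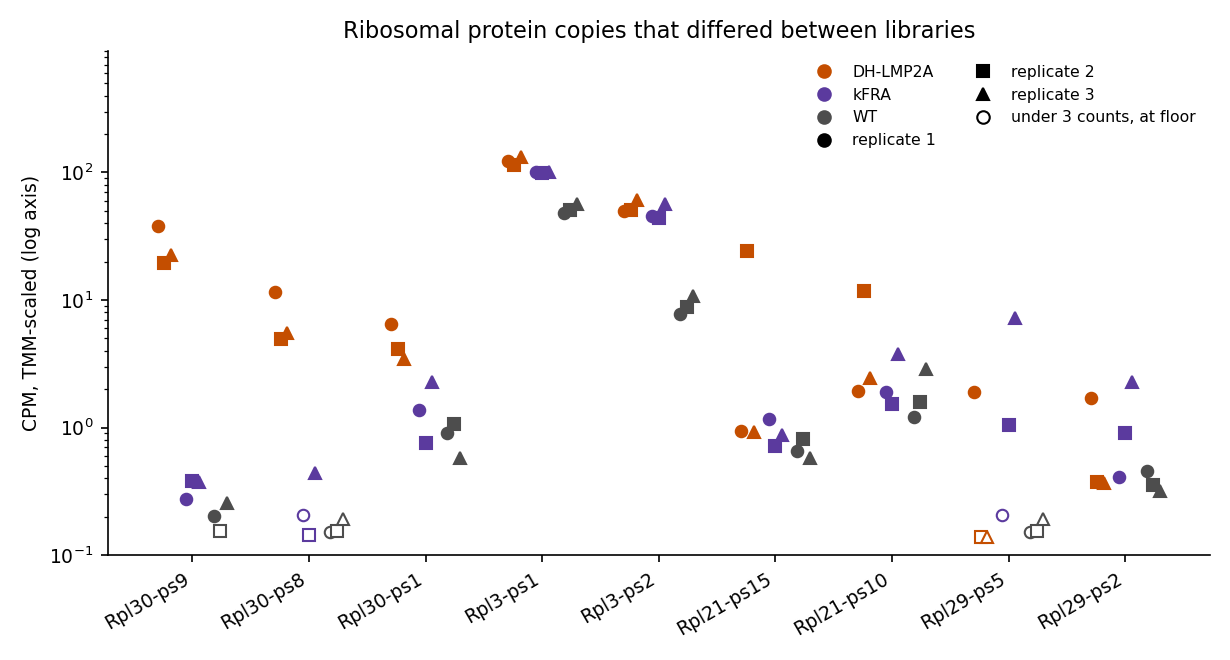
Level in CPM (log axis) of 9 copies in each of 9 libraries, coloured by genotype with the replicate number as the symbol; open symbols are libraries with under 3 counts, drawn at the level of 3 counts. Rpl30 copies are high in the DH-LMP2A libraries, Rpl3 copies in DH-LMP2A and kFRA, Rpl21 copies in DH-LMP2A replicate 2, and Rpl29 copies in DH-LMP2A replicate 1 and kFRA replicates 2 and 3.

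Copies of Rpl30, a small protein of the large subunit, were highest in DH-LMP2A, and the counts of Rpl30-ps9 and Rpl30-ps8 in the other genotypes were near 0. The parent lies at chr15:34440505-34443640 (minus strand) and has 9 -ps copies, of which Rpl30-ps9, Rpl30-ps8 and Rpl30-ps1 were tested.

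All 13 copies of Rpl30 found by sequence carried G96A (the parent's base, its coding position counted from the A of the parent's start codon, and the copy's base, in GENCODE M21 transcripts on GRCm38). Rpl30-ps9 differed from the parent only by G96A and G342A over the 345 bases that aligned, of 348 in the parent's coding sequence. Rpl30-ps8 carried G21A, G96A and G129C, and Rpl30-ps1 carried G39A, G96A and C173T. Gm12191, a pseudogene outside the -ps names (chr11:49678710-49679057, minus strand), carried G96A alone. Apart from these bases, a read from the parent and one from a copy are the same over the aligned coding sequence in this reference. Of the windows of Rpl30-ps9, 2.58% were unique to it, with 12.2% for Rpl30-ps8 and 41.6% for Rpl30-ps1.

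Rpl30-ps9 had 38.2, 19.6 and 22.3 CPM in DH-LMP2A, 0.274, 0.381 and 0.376 CPM in kFRA and 0.203, 0.102 and 0.255 CPM in WT. The 3 DH-LMP2A libraries were high and all 6 others near 0, without overlap. It was lower in kFRA than in DH-LMP2A by 6.24 on the log2 scale (-6.24 with an SE of 0.37, edgeR adjusted p = 5.65e-06) and higher in DH-LMP2A than in WT by 7.14 (SE 0.40, edgeR adjusted p = 5.75e-06). Between kFRA and WT the log2 fold change was 0.90 with a 95% interval from -0.26 to 2.07. Rpl30-ps8 was also high in the 3 DH-LMP2A libraries, at a lower level. It had 11.5, 4.92 and 5.54 CPM in DH-LMP2A, 0.0684, 0.0951 and 0.439 CPM in kFRA and 0.101, 0.153 and 0.0637 CPM in WT, with kFRA and WT at or near the level of 3 counts a library. Its log2 fold changes were -5.17 (SE 0.60, edgeR adjusted p = 0.000849) in kFRA against DH-LMP2A and 5.99 (SE 0.65, edgeR adjusted p = 0.000429) in DH-LMP2A against WT. Rpl30-ps1, with 6.47, 4.13 and 3.43 CPM in DH-LMP2A, 1.37, 0.761 and 2.26 CPM in kFRA and 0.912, 1.07 and 0.573 CPM in WT, was higher in DH-LMP2A than in WT (2.44, SE 0.44, edgeR adjusted p = 0.00722). Its kFRA libraries also lay below those of DH-LMP2A, without a call (-1.69, edgeR adjusted p = 0.0541). The untested Rpl30-ps10 had 1.10, 0.881 and 0.320 CPM in DH-LMP2A and at most 0.318 CPM in the others, and the other 5 -ps copies were at or near 0 in all libraries.

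The lowest libraries of the parent Rpl30 were DH-LMP2A replicates 1 and 2. It had 149, 178 and 209 CPM in DH-LMP2A, 236, 187 and 276 CPM in kFRA and 199, 194 and 197 CPM in WT, with no call in any comparison (log2 fold changes 0.38, 0.24 and -0.14 in kFRA against DH-LMP2A, kFRA against WT and DH-LMP2A against WT). Gm12191 followed the -ps copies, with 28.9, 14.7 and 16.7 CPM in DH-LMP2A against 2.05 to 4.45 CPM in the 6 other libraries. Added up, the parent and all its matching copies came to 240, 226 and 260 CPM in DH-LMP2A, 243, 191 and 286 CPM in kFRA and 205, 200 and 201 CPM in WT. The log2 fold change of this sum was -0.01 (95% interval -0.37 to 0.35) in kFRA against DH-LMP2A, 0.26 (-0.11 to 0.62) in kFRA against WT and 0.26 (-0.10 to 0.63) in DH-LMP2A against WT, none past the threshold. The copies' share of the sum was 37.9, 20.99 and 19.5% in the DH-LMP2A libraries and 2.09 to 3.43% in the 6 others. DH-LMP2A replicate 1 had the lowest parent level and the largest share. Of the tested genes within 500 kb of Rpl30-ps9 (3 genes) and of Rpl30-ps8 (6 genes), 0 were called in any comparison, and of 11 near Rpl30-ps1, 1 was called in kFRA against WT only. Of all tested genes, 5.02, 17.8 and 12.4% were called in kFRA against DH-LMP2A, kFRA against WT and DH-LMP2A against WT. With so few neighbours, these counts cannot show whether the surroundings of a copy differed from other genes.

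Rpl3, the large-subunit protein near the peptidyl transferase centre, has 2 -ps copies, both on the X chromosome and both higher in DH-LMP2A and kFRA than in WT. The shown stretch, coding positions 756 to 816, holds T786C, the substitution that both copies share and that 7 of 19 copies of Rpl3 carry. Here and in the sequences of other families, every base at which the parent and a shown copy differ is in capitals in the parent, and the copy's own differing bases are in capitals in the copy (GENCODE M21 transcripts, GRCm38). The parent lies at chr15:80077791-80091868 (minus strand), and the windows are chrX:13203327-13203387 (plus strand) for Rpl3-ps1 and chrX:74171410-74171470 (plus strand) for Rpl3-ps2.
Rpl3: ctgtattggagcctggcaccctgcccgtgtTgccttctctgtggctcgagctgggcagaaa
Rpl3-ps1: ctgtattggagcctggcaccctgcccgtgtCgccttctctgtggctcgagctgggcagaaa
Rpl3-ps2: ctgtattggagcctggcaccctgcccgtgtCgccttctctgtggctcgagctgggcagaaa

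Over the whole coding sequence Rpl3-ps1 differed from the parent only by C57A and T786C, and 5.11% of its windows were its own. Rpl3-ps2 carried 10 substitutions, among them T243C, A519G and G963C, each found in 17 of 19 copies, and G290A, G976A and C1069T, found in no other copy. With more differences, 39.7% of its windows were its own.

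Rpl3-ps1 had 122, 114 and 133 CPM in DH-LMP2A, 101, 98.5 and 102 CPM in kFRA and 48.2, 51.0 and 56.1 CPM in WT. Every library of DH-LMP2A and kFRA was above every WT library, and the 2 contrasts with WT were called (log2 fold change 1.25, SE 0.12, edgeR adjusted p = 0.000158 for DH-LMP2A and 0.96, SE 0.12, edgeR adjusted p = 0.000614 for kFRA). Rpl3-ps2 had 49.9, 50.8 and 60.6 CPM in DH-LMP2A, 45.2, 43.9 and 56.5 CPM in kFRA and 7.80, 8.77 and 10.7 CPM in WT. WT was again the low genotype, with log2 fold changes of 2.57 (SE 0.17, edgeR adjusted p = 1.61e-05) for DH-LMP2A and 2.42 (SE 0.17, edgeR adjusted p = 1.34e-05) for kFRA against WT. Between kFRA and DH-LMP2A neither copy was called, at -0.30 (95% interval -0.55 to -0.04) for Rpl3-ps1 and -0.15 (-0.50 to 0.21) for Rpl3-ps2. Another copy, outside the -ps names, Gm5879 (chr6:87764996-87766204, minus strand), had 18.8 to 25.5 CPM in all 9 libraries with overlapping genotypes.

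The parent Rpl3 had 395, 371 and 446 CPM in DH-LMP2A, 375, 323 and 440 CPM in kFRA and 445, 471 and 482 CPM in WT, with log2 fold changes of -0.21 and -0.30 against WT that were not called. With all copies added, the sum was 591, 558 and 666 CPM in DH-LMP2A, 541, 484 and 620 CPM in kFRA and 523, 552 and 573 CPM in WT. These overlapped, and the sum's log2 fold changes were -0.14 (95% interval -0.49 to 0.21) in kFRA against DH-LMP2A, 0.00 (-0.35 to 0.35) in kFRA against WT and 0.14 (-0.21 to 0.49) in DH-LMP2A against WT. The copies' share of the sum was 33.0 to 33.5% in DH-LMP2A, 29.1 to 33.3% in kFRA and 14.7 to 16.0% in WT. Near Rpl3-ps1, 0 of 8 tested genes within 500 kb were called. Near Rpl3-ps2, 2, 6 and 4 of 32 were called in kFRA against DH-LMP2A, kFRA against WT and DH-LMP2A against WT, beside 5.02, 17.8 and 12.4% of all tested genes.

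The Rpl30 and Rpl3 calls held in every fit that left out 1 library (6 of 6 for each of Rpl30-ps9, Rpl30-ps8, Rpl30-ps1, Rpl3-ps1 and Rpl3-ps2). They also held under each other setting in which the copy was tested.

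**Figure D4:**
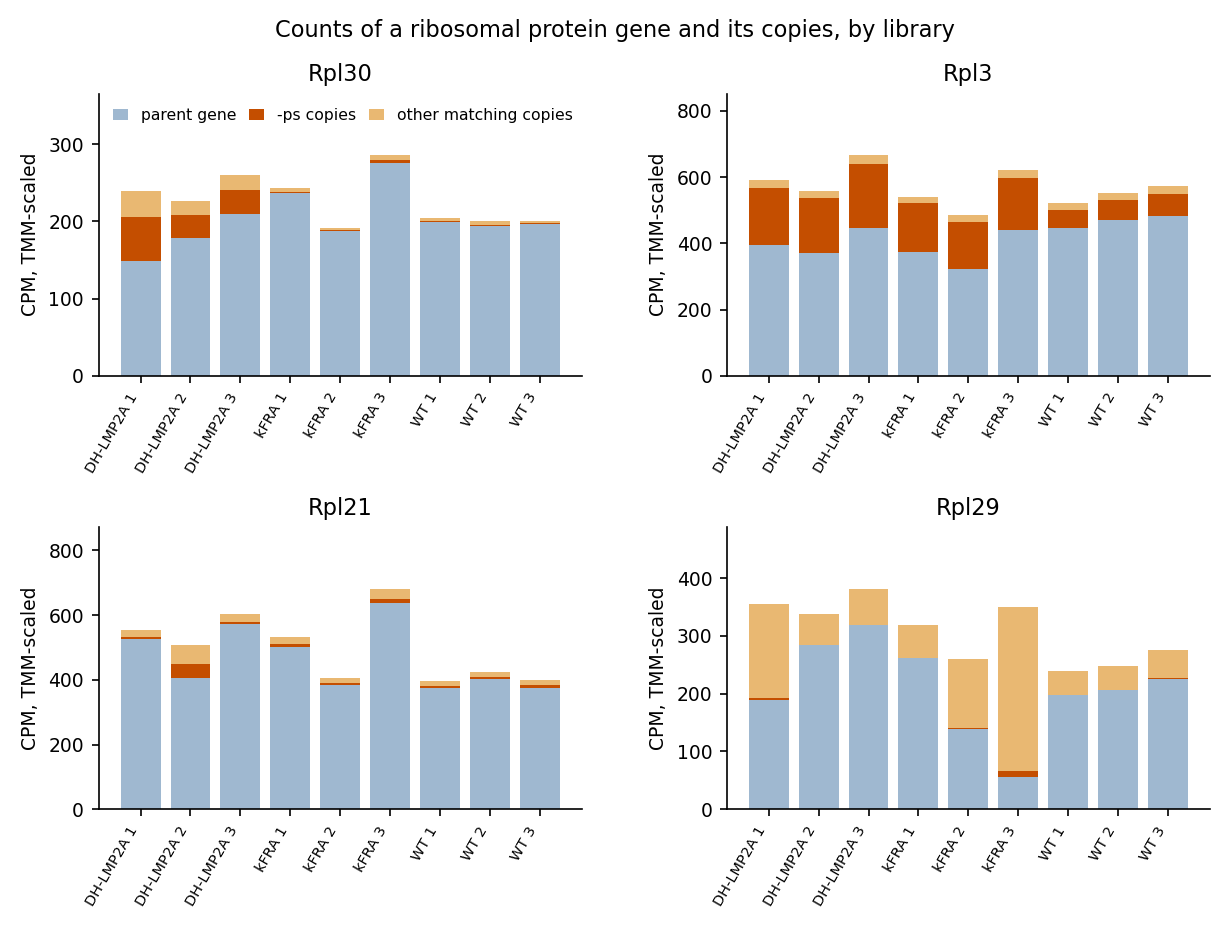
Stacked CPM of a parent gene (blue), its -ps copies (orange) and other copies that match it by sequence (tan) in each of 9 libraries, for 4 families. In Rpl30 and Rpl3 the orange part differs between genotypes, in Rpl21 it is largest in DH-LMP2A replicate 2, and in Rpl29 the tan part ranges up to 284 CPM in kFRA replicate 3 where the parent is at 56.3 CPM.

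The -ps names do not cover every copy, and in the Rpl26 family the sum differed with and without the rest. All 4 -ps copies of Rpl26, a large-subunit protein, were at 0 in all 9 libraries. The parent (chr11:68901583-68906989, plus strand) had 105, 104 and 119 CPM in DH-LMP2A, 399, 307 and 507 CPM in kFRA and 277, 293 and 309 CPM in WT, and it was called in kFRA against DH-LMP2A (1.88, SE 0.19, edgeR adjusted p = 0.000316) and in DH-LMP2A against WT (-1.42, SE 0.19, edgeR adjusted p = 0.00152). The pseudogene Gm15772 on chromosome 5, 99.5% identical to the coding sequence, was the reverse, with 373, 335.9 and 403 CPM in DH-LMP2A, 54.3, 34.9 and 74.5 CPM in kFRA and 36.7, 35.3 and 42.0 CPM in WT. The substitutions that set it apart, C177T and T288C, are in capitals in the stretch of coding positions 147 to 318, chr5:3236577-3236748 (plus strand).
Rpl26: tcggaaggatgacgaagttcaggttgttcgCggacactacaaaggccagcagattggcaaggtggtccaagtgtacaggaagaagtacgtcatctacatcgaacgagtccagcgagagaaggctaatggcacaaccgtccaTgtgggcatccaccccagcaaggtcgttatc
Gm15772: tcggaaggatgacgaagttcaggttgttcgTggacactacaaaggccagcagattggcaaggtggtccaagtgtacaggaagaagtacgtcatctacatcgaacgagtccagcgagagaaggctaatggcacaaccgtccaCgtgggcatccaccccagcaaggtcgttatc

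The sum of Rpl26 and its -ps copies was therefore the parent alone, called at 1.88 in kFRA against DH-LMP2A. With all copies that match by sequence, the sum was 501, 461 and 548 CPM in DH-LMP2A, 472, 355 and 608 CPM in kFRA and 328, 342 and 370 CPM in WT. In kFRA against DH-LMP2A the log2 fold change became -0.07 (95% interval -0.52 to 0.38, edgeR adjusted p = 0.862). In DH-LMP2A against WT it went from -1.42 to 0.54 (0.09 to 0.996, edgeR adjusted p = 0.117). The copies' share was 77.3 to 79.1% in DH-LMP2A and 13.6 to 16.6% in the other libraries.

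A similar row outside the -ps names stood beside Rplp1, which encodes a protein of the ribosomal stalk and whose 1 -ps copy was at 0. Gm11942 had 75.2, 46.6 and 229 CPM in kFRA and at most 0.719 CPM in the 6 other libraries. Rplp1 itself had 823, 509 and 1293 CPM in kFRA, 557, 543 and 615 CPM in DH-LMP2A and 490, 493 and 532 CPM in WT, so here parent and copy were both highest in kFRA replicate 3. Gm15772, Gm11942 and the other Gm rows were chosen for naming after their values were seen.

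In the Rpl21 and Rpl29 families some libraries stood apart from the others of their genotype, and these copies were chosen after their values were seen. Rpl21 is a large-subunit protein with 14 -ps copies and 50 other matching rows. Coding positions 306 to 462 hold T336C, carried by 54 of 64 copies, G378A, carried by 4, and T432C, carried by 52, and in Rpl21-ps10 also C457A. Capitals mark them in the parent and in the copies that differ there, in the windows chrX:151215188-151215344 (minus strand) of Rpl21-ps15 and chr3:38107461-38107617 (minus strand) of Rpl21-ps10.
Rpl21: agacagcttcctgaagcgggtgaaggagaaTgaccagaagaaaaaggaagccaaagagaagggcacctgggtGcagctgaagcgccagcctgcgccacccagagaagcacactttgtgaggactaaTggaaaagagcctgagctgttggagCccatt
Rpl21-ps15: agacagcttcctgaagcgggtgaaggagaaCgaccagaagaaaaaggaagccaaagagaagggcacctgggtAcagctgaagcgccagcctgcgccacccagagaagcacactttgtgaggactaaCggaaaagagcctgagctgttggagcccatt
Rpl21-ps10: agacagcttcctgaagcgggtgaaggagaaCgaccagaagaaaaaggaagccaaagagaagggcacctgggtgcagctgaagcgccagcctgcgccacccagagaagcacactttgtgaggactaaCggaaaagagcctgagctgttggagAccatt

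Rpl21-ps15 lies inside Wnk3 on the X chromosome and had 24.3 CPM in DH-LMP2A replicate 2, 0.931 and 0.915 CPM in the other DH-LMP2A libraries, 0.714 to 1.16 CPM in kFRA and 0.573 to 0.816 CPM in WT. Rpl21-ps10 had 11.7 CPM in the same library and 1.22 to 3.76 CPM in the 8 others. Gm10240 had 24.2 CPM there and at most 0.376 CPM elsewhere, and Gm15682 had 6.96 CPM there and at most 0.684 CPM elsewhere. DH-LMP2A replicate 2 was thus the high library for all 4 copies, and the genotype contrasts of Rpl21-ps15 were not called (DH-LMP2A against WT 3.65, SE 1.20, edgeR adjusted p = 0.0825). Rpl21-ps15 met the definition of a switch in that contrast through this library, since the other DH-LMP2A libraries were within 0.931 CPM. The parent Rpl21 had 525, 407 and 572 CPM in DH-LMP2A, lowest in the same library, 501, 385 and 636 CPM in kFRA and 376, 402 and 374 CPM in WT. Copies took 19.9% of the family in DH-LMP2A replicate 2 and 5.17 to 6.67% in the other libraries. The sum of all was 508 CPM in that library, the lowest of its genotype, beside 554 and 603 CPM in the other DH-LMP2A libraries. In kFRA and WT it was 397 to 682 CPM.

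Rpl29, a large-subunit protein also known as a heparin-binding protein, has 3 -ps copies and 40 other matching rows. The copy with the widest range was Gm13841, a pseudogene of chromosome 5 with no -ps name. Coding positions 270 to 453 are shown for the parent, Rpl29-ps2 and Gm13841, with capitals as above. C300T was carried by 24 of 43 copies and T423C by 38, and both are in the 2 copies shown, whose windows are chr13:4614449-4614632 (plus strand) and chr5:115801707-115801890 (minus strand).
Rpl29: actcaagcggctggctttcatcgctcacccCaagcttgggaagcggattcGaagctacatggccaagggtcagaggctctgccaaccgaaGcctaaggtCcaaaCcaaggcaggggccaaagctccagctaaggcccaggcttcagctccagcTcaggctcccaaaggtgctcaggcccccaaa
Rpl29-ps2: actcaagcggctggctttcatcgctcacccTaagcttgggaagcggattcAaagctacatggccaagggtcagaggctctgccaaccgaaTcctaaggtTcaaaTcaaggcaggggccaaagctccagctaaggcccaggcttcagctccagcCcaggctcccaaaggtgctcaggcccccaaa
Gm13841: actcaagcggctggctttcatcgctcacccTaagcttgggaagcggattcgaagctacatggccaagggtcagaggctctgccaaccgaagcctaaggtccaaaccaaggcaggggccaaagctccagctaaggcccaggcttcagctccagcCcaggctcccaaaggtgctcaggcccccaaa

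Rpl29-ps5 had 1.90 CPM in DH-LMP2A replicate 1 and 0.0464 and 0 CPM in replicates 2 and 3, 0, 1.05 and 7.21 CPM in kFRA, and 0, 0.0510 and 0.0637 CPM in WT. Its level in kFRA replicate 3 (115 counts) was at least 35.2-fold higher than in kFRA replicate 1, which had 0 counts, taking 3 counts as the floor of that library. Rpl29-ps2 had 1.69, 0.371 and 0.366 CPM in DH-LMP2A, 0.410, 0.904 and 2.26 CPM in kFRA and 0.318 to 0.456 CPM in WT. Gm13841 had 78.6, 0.557 and 0.412 CPM in DH-LMP2A, 0.889, 56.2 and 164 CPM in kFRA and 0.408 to 0.764 CPM in WT. These 3 copies were high in the same libraries, DH-LMP2A replicate 1 and kFRA replicates 2 and 3, so the genotypes overlapped and neither -ps copy was called in any comparison. Gm17669, another Rpl29 copy, was not high with them, at 13.0, 5.23 and 1.13 CPM in kFRA, 8.04, 11.1 and 13.3 CPM in DH-LMP2A and 8.79 to 9.83 CPM in WT, and in kFRA it was highest in replicate 1, as was the parent.

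The parent Rpl29 was low in those libraries, with 188, 284 and 318 CPM in DH-LMP2A, 261, 139 and 56.3 CPM in kFRA and 198, 206 and 226 CPM in WT. With all copies added, the family had 355, 338 and 381 CPM in DH-LMP2A, 318, 260 and 350 CPM in kFRA and 239, 248 and 275 CPM in WT. The highest library was 5.65 times the lowest for the parent and 1.60 times for the sum. The copies' share was 46.9, 16.1 and 16.6% in DH-LMP2A, 17.8, 46.5 and 83.9% in kFRA and 16.8 to 17.7% in WT. The sum's log2 fold changes were -0.21 (95% interval -0.55 to 0.13) in kFRA against DH-LMP2A, 0.29 (-0.05 to 0.63) in kFRA against WT and 0.50 (0.16 to 0.84, edgeR adjusted p = 0.064) in DH-LMP2A against WT.

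At least 4-fold spread within a genotype, with the highest library at 1 CPM or more, was seen in 9 of 271 copies. The share of all genes with such a spread was not counted, so 9 cannot be called many or few. Besides the Rpl21 and Rpl29 copies these were Rpl28-ps3, Rpl36-ps2, Rps12-ps13, Rps4x-ps and Rpsa-ps9, each highest in kFRA replicate 3. Rpsa-ps9, a copy of the gene for a small-subunit protein, had 10.9, 5.80 and 25.0 CPM in kFRA and 5.67 to 10.1 CPM in the other genotypes. The members' summed level was also highest in kFRA replicate 3 (2376 CPM) and within kFRA lowest in replicate 2 (1304 CPM). This order was not particular to the copies. The parents summed to 31262 and 18975 CPM in these 2 libraries, and the 82 cytosolic ribosomal protein genes to 44070 and 26356 CPM.

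The remaining called copies changed by less and mostly together with their parents. Rpl28-ps1, 100% identical to the coding sequence of Rpl28 with no window of its own, had 59.1, 53.0 and 64.8 CPM in DH-LMP2A, 48.8, 38.2 and 76.8 CPM in kFRA and 26.3, 32.5 and 31.4 CPM in WT. The WT libraries were lowest, and the copy was higher in DH-LMP2A (0.97, SE 0.23, edgeR adjusted p = 0.0257) and in kFRA (0.86, SE 0.23, edgeR adjusted p = 0.0342), as was Rpl28 itself (0.88 and 0.70). Rpl10-ps3 was higher in DH-LMP2A than in WT by 0.71 (SE 0.13, edgeR adjusted p = 0.0086) beside 0.73 in Rpl10. Rpl35a-ps6 (chr5:123255481-123255813, minus strand), with 1 mismatch to Rpl35a, was called where its parent was not. It had 77.0, 70.7 and 81.4 CPM in DH-LMP2A, 46.1, 30.8 and 76.8 CPM in kFRA and 28.3, 30.8 and 32.4 CPM in WT. The copy was higher in DH-LMP2A than in WT by 1.33 (SE 0.28, edgeR adjusted p = 0.0136), where Rpl35a had 0.07 (95% interval -0.39 to 0.54) and the sum of all copies and parent 0.42 (-0.10 to 0.93), and the difference between copy and parent was not tested.

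Of the others, Rpl19-ps1, Rpl31-ps8 and Rps12-ps3 were higher in DH-LMP2A than in WT, by 0.54, 0.53 and 0.98, beside 0.43, 0.48 and 0.40 in parents that were not called. In kFRA against WT, Rps2-ps10 (1.10), Rpl36a-ps1 (0.92) and Rpl36a-ps3 (1.08) were higher. Rpl36a-ps3 had 139, 78.3 and 219 CPM in kFRA and 59.1, 59.2 and 88.1 CPM in WT, which overlap. It had 1 mismatch to Rpl36al, a close relative of Rpl36a, and 40 to the Rpl36a coding sequence, and Rpl36al had 273, 178 and 329 CPM in kFRA and 139, 153 and 193 CPM in WT (0.69, edgeR adjusted p = 0.0665). Calls of this group were less firm: when 1 library was left out at a time, Rpl19-ps1 and Rps12-ps3 kept their call in 0 of 6 fits, Rpl28-ps1 and Rpl36a-ps1 in 1, Rpl31-ps8, Rpl36a-ps3 and Rps2-ps10 in 2, Rpl35a-ps6 in 3 and Rpl10-ps3 in 5. In kFRA against WT the calls of Rpl28-ps1, Rps2-ps10, Rpl36a-ps1 and Rpl36a-ps3 were also lost in a fit of the 6 libraries of these genotypes alone, that of Rpl36a-ps1 with no filter on low counts and with the replicate block, and that of Rpl36a-ps3 among genes with a mean of at least 5 CPM.

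Summed with their -ps copies, most of the 59 parents were not called, and this was already so for the parents alone. Alone, 1, 1 and 5 parents were called higher and 0, 0 and 1 lower in the 3 comparisons. These were the same genes as in the sums with -ps copies, so adding those copies changed no call. In kFRA against DH-LMP2A 1 sum was called (Rpl26, higher in kFRA), beside 5.05% of all rows of that table. In kFRA against WT 1 sum was called (Rpl28, 0.72), beside 17.9%, and in DH-LMP2A against WT 6 were, 5 of them higher (Rpl10, Rpl22, Rpl28, Rpl5 and Rpl7) and 1 lower (Rpl26), beside 12.4%. Adding every copy that matched by sequence (at least 90% identity over at least 80% of the coding sequence, 457 further rows) left 0, 1 and 4 sums called, beside 4.98, 18.1 and 12.5% of rows, all higher than in WT (Rpl28 in kFRA and Rpl10, Rpl28, Rpl5 and Rpl7 in DH-LMP2A). Leaving out kFRA replicate 2 raised the -ps sums called to 3 in kFRA against DH-LMP2A and 40 in kFRA against WT. Without any other kFRA or WT library the kFRA against WT count was 0, and without any DH-LMP2A or WT library the DH-LMP2A against WT count was 1 to 3.

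Across families a level sum was not the general rule. The copies' share of the family moved by a median of 1.90 percentage points between the lowest and highest library, and by over 10 points in 8 of 59 families (Rpl29, Rpl26, Rpl30, Rpl3, Rpl35a, Rplp1, Rpl21 and Rpl36a). The highest library was a median of 1.82 times the lowest for the parent alone and 1.84 times for the parent with all copies, and the sum had the smaller ratio in 26 of 59 families. For Rpl30 the ratio went from 1.85 to 1.495, for Rpl3 from 1.49 to 1.38, for Rpl29 from 5.65 to 1.60 and for Rpl26 from 4.86 to 1.86. For Rpl21 it was 1.70 and 1.72, for Rplp1 2.64 and 3.12, for Rpl35a 2.04 and 2.12, and for Rpl36a 2.06 and 2.63. The sums follow the names, so that of Rpl36a includes Rpl36a-ps3, the copy closest to Rpl36al. The strain from which each mouse took these loci, and the placing of reads between a parent and its copies by the aligner and counter, cannot be read from the count table, and their part in these values was not tested.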

How the data were processed

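The labels describe polyadenylated, strand-specific libraries of spleen CD138+ cells read as pairs of 75 bases. The authors deposited raw read counts per gene for 9 libraries, with totals of 15449026 to 21558128, from STAR 2.4.0a and featureCounts of Subread 1.5.0-p3 on mm10 (GRCm38), per the submitters' processing notes. The strand setting and the treatment of reads with several matches are not given in the sources used here, so near-identical and overlapping rows are uncertain. At these depths 3 counts, the limit a count of 0 allows, equal 0.139 to 0.194 CPM before TMM scaling, and cover counting error only.

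Genes were tested with edgeR 4.0.16 in R 4.3.3 (filterByExpr, TMM, quasi-likelihood test, 9 libraries in 1 fit, no covariate, Benjamini-Hochberg). DESeq2 1.42.0 was an alternative. The method was tested on simulated data. Sums replaced a parent and its copies with 1 row and were refitted, with 95% intervals. Copies were matched to GENCODE M21 coding sequences with BLAST+ 2.17.0, and substitutions were read with Biopython 1.88 under Python 3.11.15. The members, lists and definitions were chosen with earlier results of these data known. Named were the members past the threshold in any comparison, the 10 with the highest mean CPM, their parents and sums; Rpl21, Rpl29, Rpl26 and Gm rows were added after their values were seen. Some named items and sequences are not reported here. No 2 libraries of a genotype agreed within sampling noise (chi-square per degree of freedom 17.3 to 164), and each came from its own mouse.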

Additional observations from a re-analysis of the deposited data

How the results depend on the processing

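All called members kept their direction in every setting run. Of the refitted values of these members, their parents and sums, where called in the main fit, 271 kept the call and 88 lost it. Values not called in the main fit were left out of this count. Members called are given for kFRA against DH-LMP2A, kFRA against WT and DH-LMP2A against WT, from 2, 7 and 11. Scaling by library size alone gave 29 members and 48 sums in kFRA against WT and 38 members and 55 sums in DH-LMP2A against WT, and moved the share of higher calls among genes to 72.0% and 79.9%, from 37.6% and 41.0%, and to 26.0% from 34.4% in kFRA against DH-LMP2A. Without a filter on low counts 4 members were called in kFRA against DH-LMP2A and 2 sums in kFRA against WT. A mean of at least 5 CPM left 1 member in kFRA against DH-LMP2A and 1094 genes in DH-LMP2A against WT. A fit of only the 6 libraries compared gave 3 members and 0 sums in kFRA against WT, and 20 members and 16 sums in DH-LMP2A against WT. DESeq2 called 4, 11 and 17 members, 9 sums in kFRA against WT and 12 in DH-LMP2A against WT, and 1405 genes in kFRA against DH-LMP2A. Asking also for a 2-fold change left 4 members in kFRA against WT and 6 in DH-LMP2A against WT. All matching copies left 0 sums in kFRA against DH-LMP2A.

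Leaving out 1 library gave 2 to 14, 2 to 42 and 6 to 10 members, 1 to 3, 0 to 40 and 1 to 3 sums, and 352 to 3299, 1271 to 5632 and 932 to 1408 genes, with the highest values of both kFRA contrasts in the fits without kFRA replicate 2. Same-numbered libraries of different genotypes had correlated deviations over 0.1 in 4 of 9 pairs (range -0.21 to 0.20). With 3 libraries a genotype this cannot show whether the numbers pair the mice. With the replicate number as a block, 2, 6 and 13 members, 1, 2 and 8 sums and 685, 2930 and 2067 genes were called. Depth limits the copies near 0, where 3 counts or fewer were seen in a library.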
